A study of Mus musculus with 27 samples.

Results

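How heart tissue answers an infarction was compared between mice with and without chronic kidney disease (CKD), using in each heart the difference between infarct tissue and remote myocardium of that same heart. The comparison holds the 13 mice that gave both pieces, 7 with CKD and 6 controls, and therefore 26 of the 27 libraries from 14 mice. The remote piece of 1 further CKD mouse had no infarct partner and did not enter. RNA was measured by bulk sequencing, and 14767 of the 21626 genes with at least 1 count in these libraries passed the filter on low counts. All mice were male, of strain C57BL/6J and genotype ApoE-/-, and were sampled 7 days after myocardial infarction. CKD mice received adenine in a western type diet, at 0.3% over 10 days and afterwards at 0.15% over 11 days, of which 4 days preceded the infarction and 7 followed it. Control mice ate the western type diet without adenine throughout, and both groups had eaten it for 4 weeks before adenine was given. The design holds no mouse without infarction, no mouse with an intact Apoe gene and no female mouse, so the responses are those of atherosclerosis-prone males after infarction.

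In a healing infarct, dead cardiomyocytes are cleared by neutrophils and macrophages, and activated fibroblasts fill the gap with collagen. RNA of contractile proteins, ion channels and mitochondrial enzymes therefore falls in infarct tissue, while RNA of matrix and leukocyte genes rises. Dietary adenine forms crystals in kidney tubules and is a common way to produce CKD in mice. Kidney failure is known for retained uremic solutes and for changes in neutrophil function. In bulk tissue, fewer cells of a type and less RNA per cell cannot be told apart, and this holds for every result that follows.

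Library totals ran from 14255456 to 29506790 counts in CKD infarct pieces and from 18993652 to 31913428 counts in CKD remote pieces. In control hearts they ran from 15962275 to 24652545 counts in infarct pieces and from 17699794 to 42566498 counts in remote pieces. Levels are given as CPM, counts scaled to a common library size, and the response of a heart is the log2 CPM of its infarct piece minus that of its remote piece. Apoe, the gene deleted in all mice, still gave counts. Its lowest, median and highest levels were 11.8, 16.2 and 34.2 CPM in CKD infarct, 13.1, 20.7 and 27.2 CPM in CKD remote, 9.9, 23.7 and 33.2 CPM in control infarct and 13.5, 18.5 and 20.3 CPM in control remote pieces. These ranges overlapped in all 4 groups, and which part of the gene was deleted is not given in the sources used here.

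A few hearts stood apart from their groups. In CKD mouse 9179 the infarct piece had less Col1a1 than the remote piece, 81.2 against 207 CPM, and as much Myh6, 31492 against 31454 CPM. Its remote library carries CKD in the title and control in the treatment label and was placed by the title, like its infarct library. In CKD mouse 9172 the response of the cardiomyocyte contractile list was -0.42, the nearest to 0 among the other 12 hearts. In control mouse 9180 the remote piece had 3883 CPM of Col1a1 and 1815 CPM of Nppa, against medians of 389 and 183 CPM in control remote pieces, and its matrix response was 0.95. Mice 9172, 9179 and 9180 were singled out by such values in these same data, so fits without them are no separate support. List counts that changed by more than 1.5 times without a single heart are given beside the main lists.

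Infarct and remote tissue differed in many genes in both groups, and the responses ran in the same direction. In CKD hearts 3616 genes (24.5%) rose and 3573 (24.2%) fell in infarct relative to remote tissue. In control hearts 4737 genes (32.1%) rose and 5013 (33.9%) fell (edgeR's quasi-likelihood test with mouse as a block, adjusted p under 0.05 by Benjamini-Hochberg over all genes). Both tests called 3280 genes higher and 3207 lower, so that 45.6% and 44.6% of the CKD calls, or 33.6% and 32.9% of the control calls, were shared in these directions. Across the 14767 genes, which are not independent replicates since each heart contributes to all of them, the 2 responses correlated with a Pearson r of 0.91 and a Spearman rho of 0.92. They had the same sign for 88.7% of genes.

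The response was smaller in CKD hearts for 76.6% of genes. The median absolute fold change was 0.37 on the log2 scale in CKD hearts and 0.56 in control hearts. Taken heart by heart, the median absolute response had a lowest, median and highest value of 0.26, 0.45 and 0.58 in CKD hearts and of 0.27, 0.66 and 0.77 in control hearts. The 2 lowest CKD values belonged to mice 9179 and 9172 and the lowest control value to mouse 9180. Among the other hearts, the 5 CKD values reached from 0.41 to 0.58 and the 5 control values from 0.54 to 0.77, which overlapped. Without 9172 and 9179 the response was smaller in CKD hearts for 62.8% of genes, and without 9172, 9179 and 9180 for 72.2%.

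**Figure D1:**
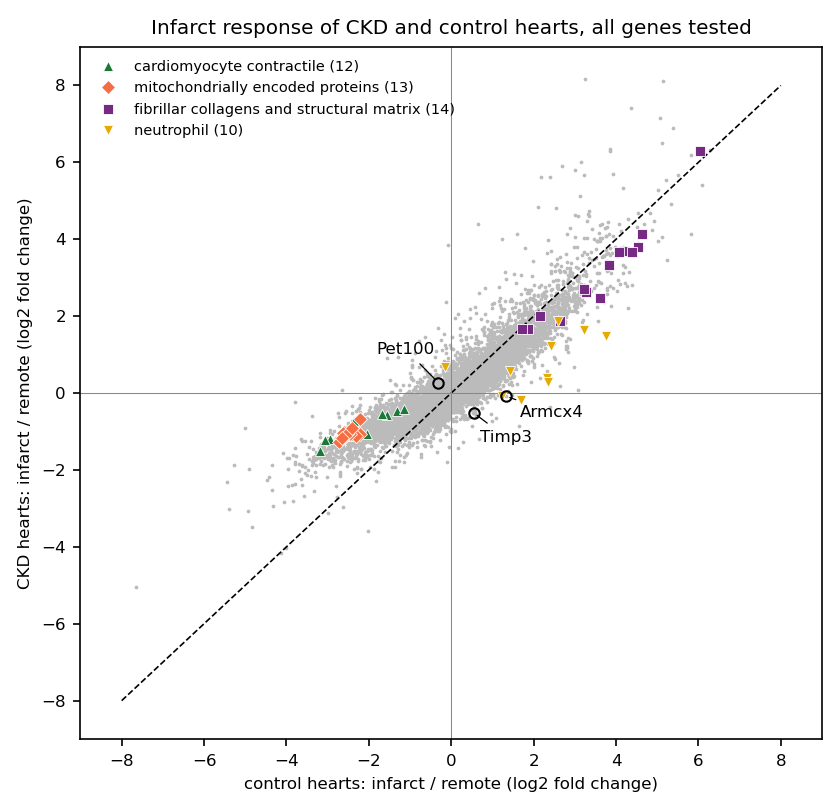
Log2 fold change of infarct over remote tissue in 7 CKD hearts (vertical axis) against that in 6 control hearts (horizontal axis), 1 grey point per gene for 14767 genes, with equality as the dashed line. Cardiomyocyte and mitochondrial genes (green, orange) lie above the line, with fold changes nearer to 0 in CKD hearts, most neutrophil genes (yellow) lie below it, and circles mark Timp3, Armcx4 and Pet100.

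The difference between the responses, CKD minus control, did not pass the threshold for any single gene. No gene of 14767 (0%) was called by edgeR's quasi-likelihood test, and the lowest adjusted p was 0.259. An unadjusted p under 0.05 was reached by 2551 genes (17.3%), of which 1829 (12.4%) had a more positive response in CKD hearts and 722 (4.89%) a more negative one. These shares over all genes are the background for every list count at that level below. Members of a list come from the same hearts and can move together, so such counts are not independent observations. DESeq2 called 399 genes, 383 more positive and 16 more negative in CKD hearts, and gave an adjusted p to 2743 genes and none to the other 12024, among them Armcx4 and Pet100. By contrast, limma on the responses of single hearts called 0, with 2497 at an unadjusted p under 0.05. With weights that give less to deviant hearts, limma called 1 gene, Armcx4. All single-gene differences below are therefore values with their errors and not calls, except where DESeq2 is named.

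Contractile genes of cardiomyocytes were lower in the infarcts, and their fold changes lay nearer to 0 in CKD than in control hearts in all 12 members, although edgeR called no single difference. All 12 members of the list fell in control hearts and 6 of 12 in CKD hearts, with median fold changes of -1.07 in CKD and -2.43 in control hearts on the log2 scale. All 12 differences of the responses were positive, with a median of 1.44, against 0.02 over all genes tested, of which 52% were positive. DESeq2 called 7 of these differences, against 383 more positive calls among the 2743 genes to which it gave an adjusted p. In edgeR an unadjusted p under 0.05 was reached by 9 of 12 members, against 12.4% of all genes. The number at that level was 2 without control mouse 9183, 3 if CKD mouse 9172 or 9179 was left out and 5 if CKD mouse 9177 was. Of the 12 members, 0 fell in CKD hearts without CKD mouse 9174, 9175, 9176 or 9178, 2 if CKD mouse 9177 was left out, and 3 if CKD mouse 9172 or control mouse 9170 or 9182 was. All 12 fell in control hearts and all 12 differences were positive whichever single heart was left out. The mean response of the list had a lowest, median and highest value of -1.55, -0.96 and 0.16 in CKD hearts and of -4.65, -1.75 and -0.996 in control hearts. The 2 groups overlapped, since control mouse 9180 lay within the range of the CKD hearts, while the other 5 control hearts lay below all CKD hearts.

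The level of the list shows where this difference sits. In infarct tissue it averaged 11.88 ± 0.64 log2 CPM in CKD hearts and 10.16 ± 1.29 in control hearts (SD, n = 7 and 6). In remote tissue it averaged 12.79 ± 0.14 in CKD hearts and 12.48 ± 0.36 in control hearts, so that the groups were closer there. Control mouse 9171 had the lowest infarct level, 7.83, and CKD mouse 9179 the highest, 12.84.

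Myh6, the main myosin heavy chain of the adult mouse ventricle, had a lowest, median and highest level of 8828, 15472 and 31492 CPM in CKD infarct and of 26941, 33931 and 34874 CPM in CKD remote pieces. In control hearts it had 542, 5719 and 9410 CPM in infarct and 12049, 28966 and 35922 CPM in remote pieces. The highest control infarct overlapped the low end of the CKD infarcts, and the middle of the groups lay apart. The response differed by 1.54 ± 0.67 (log2, SE, adjusted p = 0.267). An exact two-sided permutation test of single hearts gave p = 0.00874 for Myh6, or 0.0524 after adjustment over 6 genes tested in this way, which were Apoe, Nppa, Nppb, Myh6, Myh7 and Col1a1. Myh7, the slow myosin that shares much of its sequence with Myh6, differed by 0.88 ± 0.49 (adjusted p = 0.358), and reads may have been split between them.

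Tnnc1, which encodes the calcium-binding troponin subunit, fell in control hearts (-2.36, adjusted p = 0.000408) and had a fold change of -0.72 in CKD hearts (adjusted p = 0.126). Its difference was 1.64 ± 0.57. Actn2, the Z-disc protein alpha-actinin, fell by 1.69 in control hearts and had -0.55 in CKD hearts, a difference of 1.14 ± 0.43. DESeq2 called both differences, with adjusted p = 0.0369 for Tnnc1 and 0.0423 for Actn2.

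Calcium handling and ion channel genes followed the same order. In CKD hearts 6 of 12 members fell and in control hearts 11 of 12, with medians of -0.63 and -1.65, and all 12 differences were positive (median 0.79, 6 at an unadjusted p under 0.05). That number was 1 without CKD mouse 9172 or 9179, 2 without CKD mouse 9176 or control mouse 9183, 3 without control mouse 9182 and 11 without control mouse 9180. The members that fell in CKD hearts numbered 2 without CKD mouse 9175 or 9178 and 3 without CKD mouse 9174 or 9177. Pln, the inhibitor of the calcium pump of the sarcoplasmic reticulum, fell in both groups, with -1.19 in CKD and -2.56 in control hearts. Kcnd2, a potassium channel subunit of the transient outward current, fell by 1.99 in control hearts and had -0.44 in CKD hearts. Its difference of 1.56 ± 0.49 was the highest of the list.

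Genes of mitochondrial energy supply fell in nearly full number in both groups, and again with fold changes nearer to 0 in CKD hearts. All 17 nuclear genes of oxidative phosphorylation fell in both groups, with median fold changes of -1.02 in CKD and -2.14 in control hearts. All 17 differences had an unadjusted p under 0.05 and were positive, from 0.90 to 2.04, against 12.4% of all genes. DESeq2 called 12 of them, against 383 more positive calls among the 2743 genes to which it gave an adjusted p. Of the 13 proteins encoded in mitochondrial DNA, 12 fell in CKD and 13 in control hearts, with medians of -1.06 and -2.53. Their 13 differences, from 1.14 to 1.60, also all had an unadjusted p under 0.05. For oxidative phosphorylation 11 of 17 differences had one without control mouse 9171 or 9183, and the members that fell in CKD hearts numbered 10 without CKD mouse 9174 or 9175 and 8 without CKD mouse 9178. For the mitochondrial genome, members that fell in CKD hearts numbered 3 without CKD mouse 9175, 4 without 9174 and 5 without 9176 or 9178. The share of all counts in these 13 genes changed by -13.7 to -1.33 percentage points in CKD hearts and by -17.0 to -6.13 percentage points in control hearts.

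Cox7a1, the muscle form of a cytochrome c oxidase subunit, had the largest difference among the nuclear genes of oxidative phosphorylation. Its lowest, median and highest levels were 225, 366 and 1402 CPM in CKD infarct and 811, 1045 and 1338 CPM in CKD remote pieces, and 13.2, 170 and 257 CPM in control infarct and 477, 1167 and 1278 CPM in control remote pieces. Remote levels were alike in the middle of both groups, while only the highest control infarct exceeded the lowest CKD infarct. Cox7a1 fell in both groups, with -1.15 in CKD and -3.19 in control hearts, a difference of 2.04 ± 0.68 (adjusted p = 0.259, and 0.0369 by DESeq2). Ndufb8, a subunit of complex I, fell in both groups, with -1.04 in CKD and -2.22 in control hearts, and mt-Nd3, a complex I subunit of the mitochondrial genome, had -1.02 and -2.61 in the same order. Of 13 cardiac transcription factors and coactivators 7 fell in CKD hearts, or 4 without CKD mouse 9178, and 11 in control hearts. Ppargc1a among them, the coactivator that drives mitochondrial biogenesis, fell in both groups, with -1.25 in CKD and -2.71 in control hearts, with a difference of 1.46 ± 0.56.

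Fuel genes followed. In fatty acid oxidation 14 of 15 members fell in CKD and 15 of 15 in control hearts, with medians of -1.07 and -2.29. Cd36, the fatty acid transporter, fell in both groups, with -0.86 in CKD and -1.93 in control hearts. Acadl, an acyl-CoA dehydrogenase for long chains, had -0.88 and -2.09 in the same order. In the use of branched-chain amino acids and ketones 11 of 12 members fell in CKD and 12 of 12 in control hearts, among them Bcat2, the first enzyme of branched-chain amino acid breakdown, with -0.68 in CKD and -1.52 in control hearts. In glucose uptake and glycolysis 7 of 16 members fell and 2 rose in CKD hearts, against 14 and 2 in control hearts. Hk2, a hexokinase of muscle, fell in both groups, with -0.60 in CKD and -1.61 in control hearts, and Pgam2, the muscle phosphoglycerate mutase, had -0.95 and -2.57 in that order. Median differences of these 3 lists were 1.19, 0.85 and 0.86, with 13 of 15, 10 of 12 and 10 of 16 members at an unadjusted p under 0.05. For fatty acid oxidation this number was 5 without CKD mouse 9172 or control mouse 9183, 6 without control mouse 9171 and 7 without CKD mouse 9179. For branched-chain amino acids and ketones it was 3 without CKD mouse 9172 or 9179 or control mouse 9183, 4 without control mouse 9171 and 6 without control mouse 9182. Without both 9172 and 9179 it was 1 of 12 for branched-chain amino acids and ketones and 2 of 16 for glycolysis. In CKD hearts 9 of 15 genes of fatty acid oxidation fell without CKD mouse 9178. Of the glycolysis genes 0 fell in CKD hearts without CKD mouse 9174 or 9178, 1 without 9175 and 4 without 9176 or 9177, and 0 rose without 9174, 9175, 9176 or 9178.

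**Figure D2:**
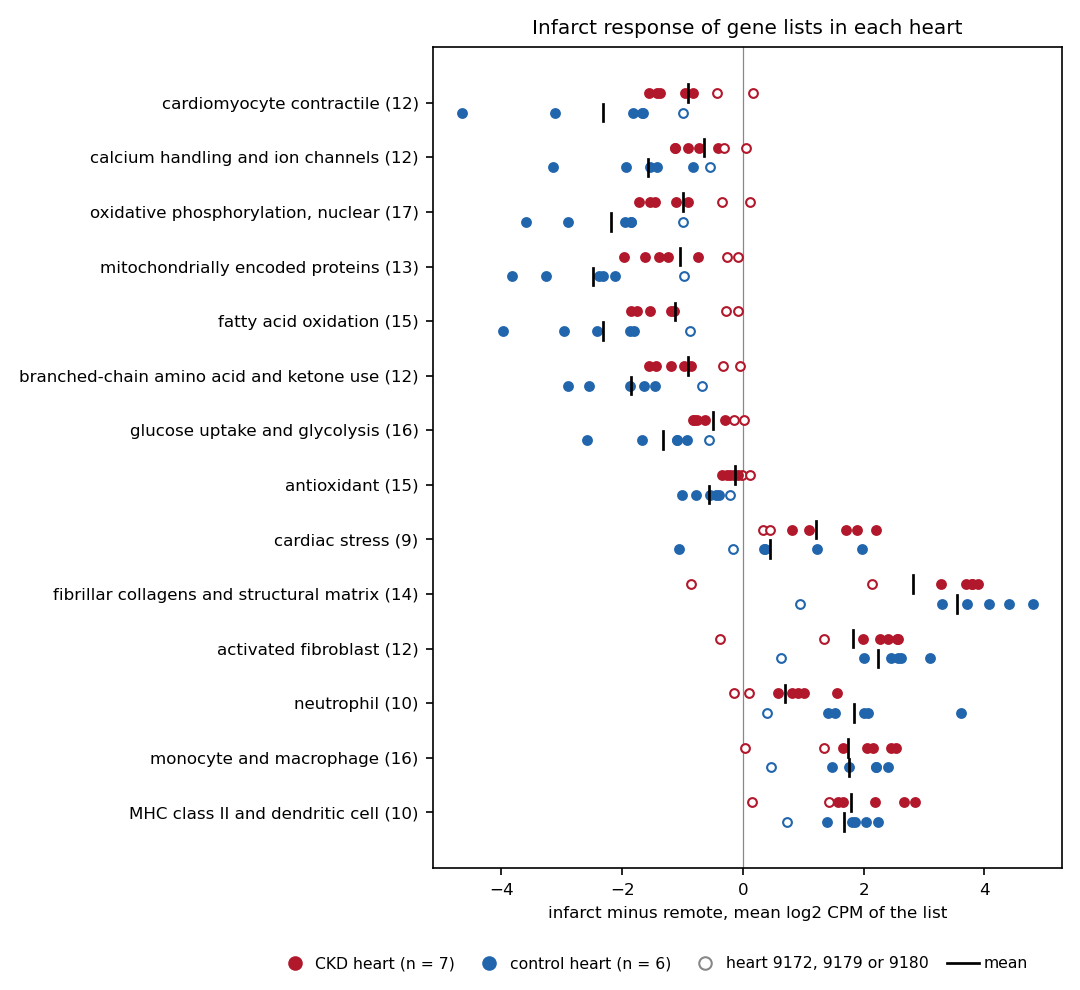
Infarct minus remote mean log2 CPM of 14 gene lists in each CKD heart (red, upper row of each list) and control heart (blue, lower row), with the number of genes tested in brackets, black bars for group means and open symbols for mice 9172, 9179 and 9180. For the muscle and energy lists the 5 filled control hearts lie to the left of most CKD hearts, from -4.65 to -1.66 for contractile genes, while macrophage responses of the groups overlap.

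These lists moved together with the score of the contractile list. When the response of the cardiomyocyte contractile list in each heart was added to limma as a covariate, no gene was called and 374 genes had an unadjusted p under 0.05, against 2497 without it, and 217 genes were in both sets. The median difference then was 0.15 for oxidative phosphorylation, 0.36 for mitochondrially encoded proteins, 0.07 for fatty acid oxidation, 0.07 for branched-chain amino acids and ketones and 0.11 for glycolysis. For contractile genes, which make up the covariate, it was -0.01. The covariate itself averaged -0.91 in CKD and -2.32 in control hearts, so this fit cannot fully separate it from the diet. Without 9172 and 9179 the median difference was 1.09 for contractile genes, 0.77 for oxidative phosphorylation, 1.10 for mitochondrially encoded proteins and 0.79 for fatty acid oxidation, all members of these 4 lists stayed positive, and 1 of 12, 4 of 17, 5 of 13 and 0 of 15 had an unadjusted p under 0.05. Without 9172, 9179 and 9180 these counts were 6, 17, 13 and 14. Those hearts were singled out by their own values, and control mouse 9180 lay within the CKD range for contractile genes. The rise in the counts is therefore no separate support.

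Cardiac stress genes did not fall in the infarcts as the contractile genes did, while their differences between the groups were likewise mostly positive. In CKD hearts 5 of 9 members rose and in control hearts 3 of 9, none fell in either group, and the median fold changes were 0.74 in CKD and 0.21 in control hearts. Of the 9 differences 8 were positive, with a median of 0.80 and 1 at an unadjusted p under 0.05, or 5 without control mouse 9182, 3 without control mouse 9170 and 2 without CKD mouse 9175. Without control mouse 9182, 3 members fell in control hearts, and without control mouse 9170, 1 did. Nppa, which encodes atrial natriuretic peptide, had a lowest, median and highest level of 291, 1104 and 4199 CPM in CKD infarct and of 38.1, 97.5 and 339 CPM in CKD remote pieces. In control hearts it had 372, 1742 and 2257 CPM in infarct and 38.7, 183 and 1815 CPM in remote pieces. It rose in both groups, by 3.18 in CKD and 2.42 in control hearts, and the difference of 0.76 ± 0.87 (SE) was smaller than its error. Nppa is also a member of the atrial list. The mean level of that list in remote pieces ran from 1.49 to 6.55 log2 CPM in CKD and from 2.11 to 6.38 in control hearts. Whether atrial tissue in the pieces moved the Nppa response was not tested. Nppb, the related peptide of the ventricle, had fold changes of 0.42 in CKD and -0.54 in control hearts, and passed the test in neither. Xirp2, a protein of the intercalated disc, had 0.59 in CKD and -0.64 in control hearts, also called in neither, and a difference of 1.23 ± 0.40 (adjusted p = 0.259, and 0.0376 by DESeq2).

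The scar genes rose strongly in both groups, and no difference between the responses was detectable with all hearts included. All 14 members of the list of fibrillar collagens and structural matrix rose in both groups, with median fold changes of 3.02 in CKD and 3.73 in control hearts. None had an unadjusted p under 0.05 for the difference, whose median was -0.50. Col1a1, the main chain of scar collagen, had a lowest, median and highest level of 81.2, 4954 and 11961 CPM in CKD infarct and of 115, 207 and 340 CPM in CKD remote pieces. In control hearts it had 8264, 10517 and 20426 CPM in infarct and 174, 389 and 3883 CPM in remote pieces. The difference of its responses was -0.51 ± 1.12 (SE), smaller than its error. Without 9172 and 9179 the matrix median was 0.19 with 11 of 14 members positive, and without 9180 it was -1.03 with 0 of 14 positive, so its sign depended on the hearts included. It also turned with the model, to 0.68 with 12 of 14 positive without the mouse block and to 0.41 with 12 of 14 positive with the cardiomyocyte covariate.

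Genes of collagen processing, matricellular proteins and the TGF-beta pathway also rose for the most part in both groups. The median difference of the matricellular list turned with the fit, from -0.80 to 0.59. For the TGF-beta pathway it was negative in every fit, from -0.45 to -0.03. For collagen processing it ran from -0.81 to -0.10, and was 0.01 with the cardiomyocyte covariate. Of 14 genes for collagen processing and cross-linking, 12 rose in CKD and 14 in control hearts, and 13 of 14 differences were negative. Plod2, the lysyl hydroxylase of collagen telopeptides, rose by 1.39 in CKD and 2.17 in control hearts. All 14 matricellular genes rose in both groups, among them Thbs2, a thrombospondin of the scar matrix, by 2.36 in CKD and 3.72 in control hearts. In the TGF-beta pathway 9 of 14 members rose in CKD and 11 in control hearts, and Smad3, the signal transducer of the pathway, rose in control hearts (0.60) and had 0.23 in CKD hearts (adjusted p = 0.0897). Its difference, -0.37 ± 0.16, was the only one of the 56 tested in the matrix, collagen processing, matricellular and TGF-beta lists at an unadjusted p under 0.05. Without control mouse 9180 there were 15 of 56, all negative, of which 1 was in the matrix, 6 in the collagen processing, 3 in the matricellular and 5 in the TGF-beta list. Without other single hearts the number ran from 0 to 4, with 4 without CKD mouse 9174, 3 without 9178 and 2 without 9175, and with 0 without CKD mouse 9172, 9176 or 9179 or control mouse 9170, 9183 or 9184. Of 12 genes of activated fibroblasts 10 rose and 1 fell in CKD hearts and 11 rose in control hearts. Acta2, the smooth muscle actin of myofibroblasts, rose by 1.32 in control hearts and had 0.56 in CKD hearts (adjusted p = 0.0773). Of 10 genes of resting fibroblasts 5 rose and 2 fell in CKD hearts and 6 rose and 2 fell in control hearts, with Scara5, a ferritin receptor, at -0.99 in CKD and -2.13 in control hearts. Of 10 osteochondrogenic genes 5 rose in CKD hearts, and 7 rose and 1 fell in control hearts.

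Timp3, the tissue inhibitor of metalloproteinases that binds to the matrix, moved in opposite directions. Its levels in CKD infarct pieces had a lowest, median and highest value of 40.003, 64.3 and 91.7 CPM, against 64.0, 90.9 and 165 CPM in CKD remote pieces. In control hearts it had 83.4, 117 and 161 CPM in infarct and 53.7, 84.2 and 102 CPM in remote pieces. The responses ranged from -1.18 to 0.01 in CKD hearts and from 0.05 to 0.94 in control hearts and did not overlap, which held for 33 genes in this direction (0.223%) and for 15 in the other (0.102%). Timp3 fell in CKD hearts (-0.52 ± 0.14, adjusted p = 0.0109) and rose in control hearts (0.55 ± 0.15, adjusted p = 0.00654). The difference was -1.07 ± 0.21 (unadjusted p = 0.000172, adjusted p = 0.259, and 0.00144 by DESeq2). In infarct tissue log2 CPM was lower in CKD than in control hearts by a difference of -0.89, and in remote tissue it differed by 0.18.

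Timp3 kept both opposite calls in all 13 fits of 12 hearts, without 9172 and 9179, and without 9172, 9179 and 9180. It kept them with the size factors of DESeq2 and in limma on responses of single hearts. Without the mouse block edgeR's quasi-likelihood test called it narrowly, with adjusted p = 0.0494 in CKD and 0.0378 in control hearts. Further fits of both responses are not reported here for Timp3. Its relative Timp4, an inhibitor known for its high level in heart, fell in both groups, with -2.37 in CKD and -3.80 in control hearts. Of the 12 metalloproteases and inhibitors, 8 rose and 2 fell in CKD hearts, and 10 rose and 1 fell in control hearts. Besides Timp3, 4 genes were called in opposite directions. Pet100, an assembly factor of cytochrome c oxidase, rose in CKD (0.27) and fell in control hearts (-0.32). Etnk1, an ethanolamine kinase, 2410002F23Rik and 5430416N02Rik fell in CKD hearts (-0.21, -0.29 and -0.73) and rose in control hearts (0.19, 0.26 and 0.98). The mean level of 5430416N02Rik was 0.673 CPM. Over the 13 fits with 1 heart left out, 2410002F23Rik kept its opposite calls in 10, Etnk1 in 9, Pet100 in 8 and 5430416N02Rik in 6. Opposite calls numbered 10 without CKD mouse 9179, 8 without CKD mouse 9172, 3 without CKD mouse 9174 or control mouse 9183 or 9184, and 2 without CKD mouse 9177. The 5 genes are 0.0696% of the 7189 calls in CKD hearts and 0.0513% of the 9750 calls in control hearts.

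Neutrophil genes were the cell type list with the most negative difference. Of 12 members 10 passed the filter, and 3 of them rose in CKD against 9 in control hearts, with median fold changes of 0.63 in CKD and 2.34 in control hearts. The median difference was -1.45, with 9 of 10 negative and 5 at an unadjusted p under 0.05, against 4.89% of all genes. S100a9, a subunit of calprotectin and among the most abundant proteins of neutrophils, had a lowest, median and highest level of 1.55, 5.02 and 14.8 CPM in CKD infarct and of 2.77, 5.91 and 11.6 CPM in CKD remote pieces. In control hearts it had 1.40, 4.28 and 27.6 CPM in infarct and 0.582, 1.57 and 2.87 CPM in remote pieces. Infarct levels overlapped widely, whereas the remote levels of the groups overlapped only between 2.77 and 2.87 CPM.

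S100a9 rose in control hearts (1.70, adjusted p = 0.00125) and had -0.19 in CKD hearts (adjusted p = 0.635), a difference of -1.89 ± 0.49. Its partner S100a8 rose by 2.32 in control hearts and had 0.39 in CKD hearts, a difference of -1.93 ± 0.60. For both genes the mean log2 CPM was higher in CKD than in control hearts in remote tissue, by 1.86 for S100a9 and 1.92 for S100a8, and differed by 0.03 and 0.10 in infarct tissue. The same was seen for the list. In infarct tissue it averaged 1.26 ± 0.39 log2 CPM in CKD and 1.35 ± 1.09 in control hearts, and in remote tissue 0.58 ± 0.51 in CKD and -0.48 ± 0.30 in control hearts, where the lowest CKD value of -0.02 exceeded the highest control value of -0.10. These are low levels, of few CPM. The median difference of the list was -1.21 without 9172 and 9179 and -0.73 with the cardiomyocyte covariate.

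**Figure D3:**
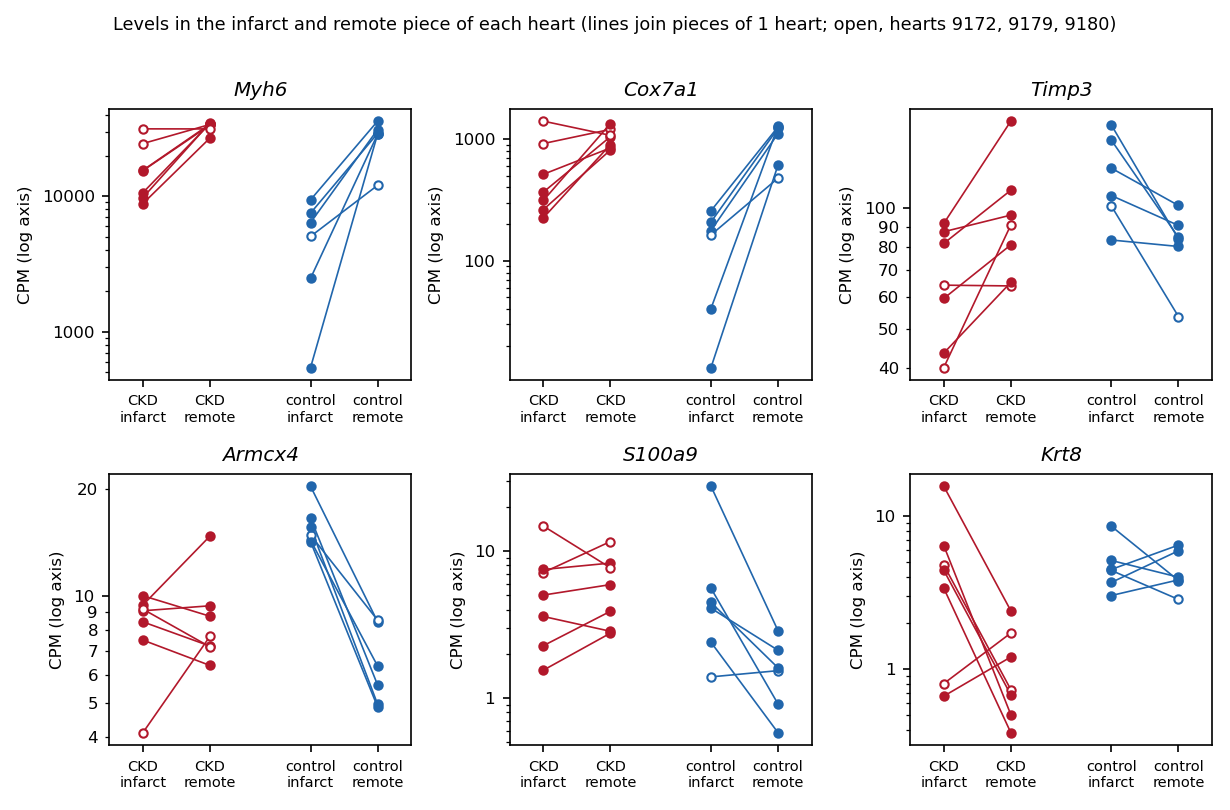
CPM on log axes in the infarct and remote piece of each CKD heart (red) and control heart (blue) for 6 genes, with a line joining the pieces of a heart and open symbols for mice 9172, 9179 and 9180. The lines for Timp3 run in opposite directions in the 2 groups, apart from 1 level CKD heart (response 0.01) and the nearly level control mouse 9170 (0.05). Those for Myh6 and Cox7a1 are steeper in most control hearts. For Krt8 the remote pieces of the groups lie apart, and for S100a9 they overlap between 2.77 and 2.87 CPM.

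Il1b, the inflammatory cytokine interleukin 1 beta, rose in both groups, by 1.22 in CKD and 2.82 in control hearts. Its levels were 2.07, 4.17 and 12.01 CPM (lowest, median, highest) in CKD infarct and 1.26, 2.25 and 3.13 CPM in CKD remote pieces, and 4.52, 6.55 and 41.2 CPM in control infarct and 0.782, 1.17 and 2.11 CPM in control remote pieces. The difference of -1.60 ± 0.57 came with lower infarct and higher remote levels in CKD hearts, and the groups overlapped in both tissues. Il1r1, its receptor, rose by 0.92 in CKD and 1.77 in control hearts. In each group 11 of the 12 cytokine and inflammasome genes rose. Il1b and Il1r1 were the only 2 of the 12 with an unadjusted p under 0.05 for the difference. Both differences were negative, a direction in which 4.89% of all genes reached that level, against 17.3% in either direction. Only 1 had such a p without CKD mouse 9172 or 9179 or control mouse 9171 or 9184.

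Most macrophage and T cell genes rose in both groups, and no difference between the groups was detectable. Of 16 monocyte and macrophage genes 12 rose and 1 fell in each group, with medians of 2.15 in CKD and 2.07 in control hearts, and 8 differences were positive and 8 negative. All 12 T and NK cell genes tested rose in CKD hearts and 11 in control hearts, and of 5 B cell genes 1 rose in CKD and 2 in control hearts. Of 16 chemokines 11 rose in CKD and 13 in control hearts, of 13 interferon-stimulated genes 11 in each group, and of 14 complement genes 11 in CKD and 12 in control hearts. In these 6 lists 1 of 76 differences had an unadjusted p under 0.05. The number was 6, all negative, without control mouse 9180, 3 without CKD mouse 9175 or 9179, 2 without CKD mouse 9178 or control mouse 9184, and 0 without CKD mouse 9172, 9176 or 9177 or control mouse 9183. Without CKD mouse 9174 or 9175 6 interferon-stimulated genes rose in CKD hearts, and without 9177 7 did.

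Genes of MHC class II and dendritic cells, which present antigen to T helper cells, rose without exception in both groups, with medians of 1.66 in CKD and 1.48 in control hearts. All 10 differences were positive, with a median of 0.20, and none had an unadjusted p under 0.05. Without control mouse 9180 the median was 0.05 with 6 of 10 positive, without CKD mouse 9178 also 6 of 10 were positive, and without CKD mouse 9179 the median was 0.44. Cd83, a marker of mature dendritic cells, rose by 1.504 in CKD and 0.97 in control hearts, and H2-DMb1, a chain of the peptide loader for class II, by 1.90 and 1.55 in the same order. The list averaged 4.79 ± 1.04 log2 CPM in CKD and 5.53 ± 0.39 in control infarct tissue. In remote tissue it averaged 2.9997 ± 0.31 in CKD and 3.86 ± 0.56 in control hearts. The mean was thus lower in CKD hearts in both tissues, but the groups overlapped and the levels were not tested. Infarct levels ran from 3.05 to 5.84 in CKD and from 4.94 to 5.95 in control hearts. Remote levels ran from 2.42 to 3.41 in CKD and from 3.09 to 4.84 in control hearts.

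Most endothelial genes were lower in infarct tissue of both groups. Of 10 endothelial genes 8 fell in CKD and 9 in control hearts, with medians of -0.51 and -0.73. Kdr, the main receptor for vascular endothelial growth factor A, fell in both groups, with -1.02 in CKD and -1.56 in control hearts. Among 11 genes of smooth muscle and pericytes, Notch3, a receptor of mural cells, fell in CKD hearts (-0.30, adjusted p = 0.0428) and had 0.19 in control hearts, and Mylk, the myosin light chain kinase, rose in control hearts (0.49, adjusted p = 0.0129) and had -0.03 in CKD hearts. Their differences were -0.48 ± 0.17 and -0.52 ± 0.21, and 3 of the 11 members had an unadjusted p under 0.05, or 1 without control mouse 9170 or 9171 and 5 without control mouse 9183.

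The mesothelial list, which marks the surface layer of the heart and can change with how a piece was cut, had a lower mean in CKD hearts in both tissues. It averaged 2.22 ± 1.48 log2 CPM in CKD and 3.03 ± 0.67 in control infarct tissue, and 1.11 ± 1.09 in CKD and 2.62 ± 0.63 in control remote tissue. Krt8, a keratin of epithelial and mesothelial cells, had a lowest, median and highest level of 0.664, 4.42 and 15.7 CPM in CKD infarct and of 0.383, 0.733 and 2.40 CPM in CKD remote pieces, against 3.02, 4.44 and 8.57 CPM in control infarct and 2.85, 3.90 and 6.45 CPM in control remote pieces. Every control remote piece lay above every CKD remote piece. Krt8 rose in CKD hearts (1.96, adjusted p = 0.00984) and had 0.10 in control hearts, with a difference of 1.86 ± 0.72. The mean response of the list ranged from -2.15 to 3.55 in CKD hearts and from -0.74 to 1.61 in control hearts, and 1 of its 8 members rose in CKD and 0 in control hearts. Without CKD mouse 9177 or 9179, and by DESeq2 with all hearts, 7 of the 8 rose in CKD hearts. The median difference was 0.94, and 1.42 without 9179. Lists for atrial, adipocyte and Schwann cells held 0 members of 17 at an unadjusted p under 0.05 for the difference, and the erythroid list 0 of 7, or 3 without CKD mouse 9174, 2 without control mouse 9180 or 9183 and 1 without CKD mouse 9178.

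**Figure D4:**
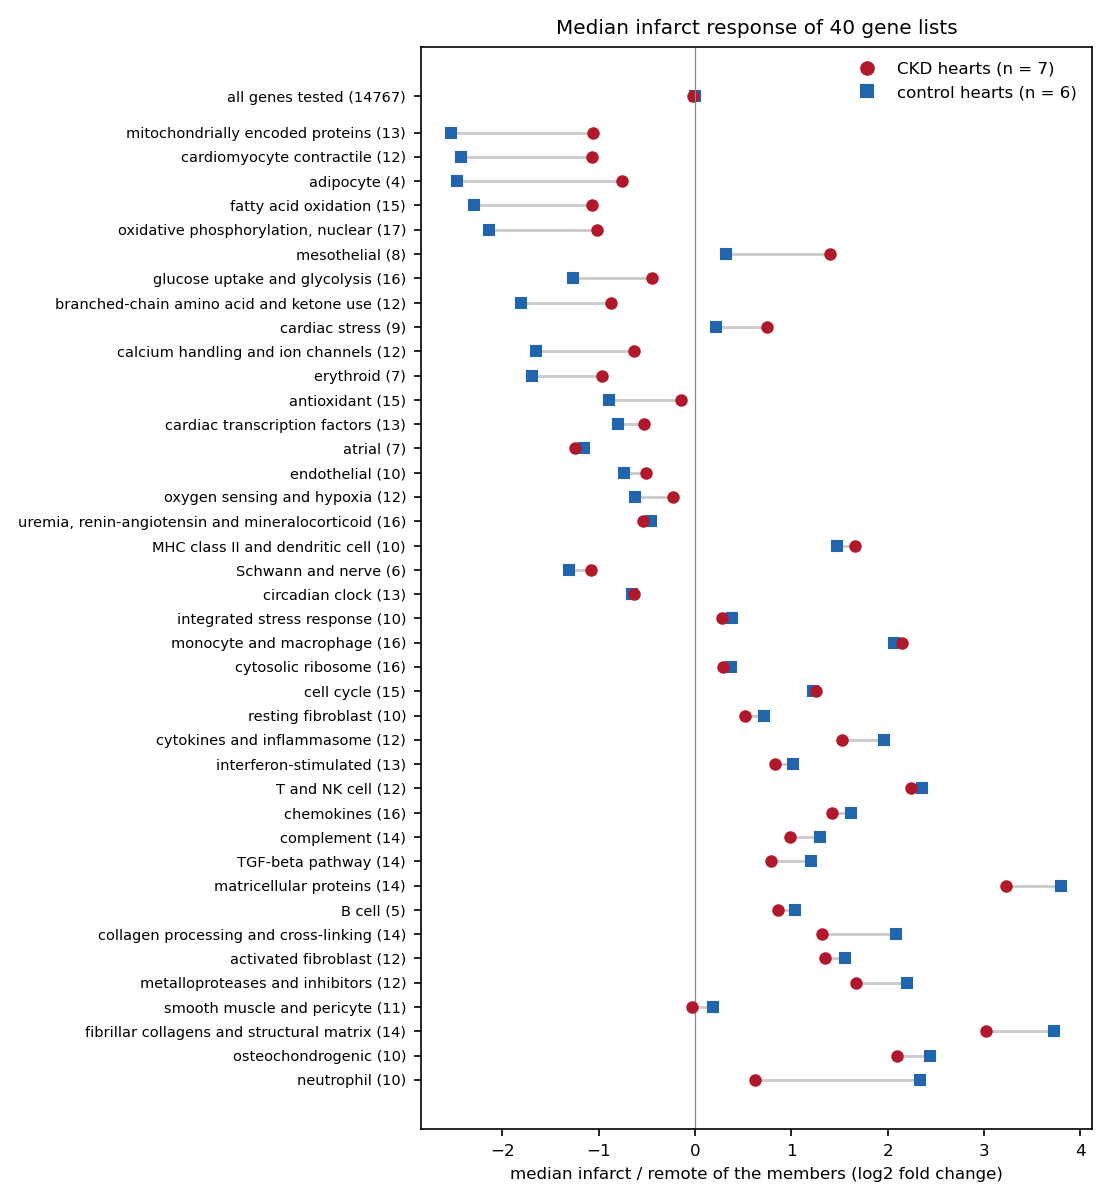
Median log2 fold change of infarct over remote tissue over the members of 40 gene lists in CKD hearts (red circles) and control hearts (blue squares), ordered by the median difference, with the number of genes tested in brackets. The mitochondrially encoded, contractile, fatty acid, oxidative phosphorylation and calcium handling lists reach from -2.53 to -1.65 in control hearts and lie nearer to 0 in CKD hearts, and the neutrophil list at the bottom has the widest gap in the other direction.

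Lists for kidney failure and cell stress were mixed. Of 15 antioxidant genes 7 fell and 3 rose in CKD hearts, against 10 and 3 in control hearts, and 10 had a positive difference at an unadjusted p under 0.05. That number was 5 without control mouse 9171, 6 without CKD mouse 9172 or control mouse 9182 or 9183, and 3 without both 9172 and 9179. In CKD hearts 4 fell without CKD mouse 9174, 9175 or 9178. Msrb1, a selenoprotein that repairs oxidised methionine, fell in control hearts (-0.62) and had -0.05 in CKD hearts, a difference of 0.58 ± 0.16 (adjusted p = 0.259, and 0.0369 by DESeq2). Nqo1, a quinone reductase induced by oxidants, had responses from -0.09 to 0.60 in CKD hearts and from -2.69 to -0.13 in control hearts. They did not overlap, which held for 0.102% of all genes in this direction. It fell in control hearts (-0.89) and had 0.13 in CKD hearts. With the cardiomyocyte covariate the median difference of the antioxidant list was 0.12, against 0.58 without it.

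Among 12 genes of oxygen sensing 4 had a positive difference at an unadjusted p under 0.05, or 1 without CKD mouse 9172 and 2 without control mouse 9171. Egln3, a prolyl hydroxylase that marks HIF proteins for decay, fell by 1.45 in control hearts and had -0.26 in CKD hearts, and Bnip3, a mitophagy receptor, fell by 0.94 in control hearts and had -0.18 in CKD hearts. Of 16 genes of uremic signalling, the renin-angiotensin system and the mineralocorticoid receptor, 3 rose and 9 fell in CKD and 2 rose and 9 fell in control hearts. Positive differences at an unadjusted p under 0.05 numbered 2 of 16, against 12.4% of all genes. Among them was that of Ahrr, the repressor of the aryl hydrocarbon receptor, with -0.86 in CKD and -1.73 in control hearts. Without control mouse 9180 there were 5 positive differences at that level, without CKD mouse 9174 4, and 1 without CKD mouse 9172, 9176, 9177 or 9179 or control mouse 9170, 9171 or 9183. Without control mouse 9180 or 9182, 1 negative difference also reached it. In the circadian clock list 1 of 13 differences, that of Ciart, reached that level. The number was 0 without CKD mouse 9172, 9177, 9178 or 9179 or control mouse 9182, 9183 or 9184. In lists of the cell cycle and the cytosolic ribosome 0 of 15 and 0 of 16 reached it. Without control mouse 9180, 1 negative difference of the cell cycle list did. Of 10 integrated stress response genes 2 had a positive difference at that level, or 1 without CKD mouse 9174, 9176 or 9179 or control mouse 9170, 9183 or 9184. Negative differences of this list at that level numbered 0 with all hearts, 1 without CKD mouse 9174 or 9175 and 2 without control mouse 9180.

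The 10 genes with the smallest p in each direction, among those with a mean of at least 1 CPM, had mostly moderate levels. Armcx4, of a family of armadillo repeat proteins, had the smallest p of all genes (2.1e-05 unadjusted, adjusted p = 0.259). Its lowest, median and highest levels were 4.12, 9.08 and 10.0 CPM in CKD infarct and 6.37, 7.69 and 14.7 CPM in CKD remote pieces, and 14.2, 15.2 and 20.3 CPM in control infarct and 4.87, 5.98 and 8.54 CPM in control remote pieces. All control infarcts lay above all CKD infarcts, and the responses of single hearts, from -0.89 to 0.35 in CKD and from 0.79 to 1.64 in control hearts, did not overlap. Armcx4 rose in control hearts (1.33 ± 0.17) and had -0.08 ± 0.15 in CKD hearts, so that the difference was -1.41 ± 0.23. It ranged from -1.52 to -1.30 over the alternative fits with all or fewer hearts, was -1.31 with the cardiomyocyte covariate, and passed the threshold in limma with weights (adjusted p = 0.0418). DESeq2 gave Armcx4 no adjusted p, and the other fits did not call it.

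Next in the negative direction was Zfp451, a zinc finger protein with SUMO ligase activity in human cells, which rose in control hearts (0.63) and had 0.03 in CKD hearts. Pkd1, the polycystin gene of autosomal dominant kidney disease, rose by 0.45 in control hearts and had -0.17 in CKD hearts. Spsb1, an adaptor of a ubiquitin ligase, rose by 0.64 in control hearts and had -0.04 in CKD hearts. Trnp1, a nuclear protein studied in brain development, rose in both groups, by 0.45 in CKD and 1.51 in control hearts. Boc, a coreceptor of hedgehog ligands, rose by 1.03 in control hearts and had 0.19 in CKD hearts. Pcdhgb6, of the gamma protocadherin cluster, fell by 0.57 in CKD hearts and had 0.35 in control hearts, and its count is uncertain since genes of this cluster share exons. With Timp3, 2410002F23Rik and Etnk1 these make the 10, and 8 of them did not overlap between the groups, against 0.223% of all genes in this direction. The genes were chosen for their small p in the same hearts, which favours such a gap, so the count is no separate support.

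In the positive direction Pet100 had responses with a lowest, median and highest value of 0.00025, 0.29 and 0.57 in CKD hearts and of -0.66, -0.18 and -0.051 in control hearts. They were above 0 in all 7 CKD hearts, although barely in the lowest, and below 0 in all 6 control hearts, and the difference was 0.59 ± 0.14 (unadjusted p = 0.000645, adjusted p = 0.259). Grhpr, which disposes of glyoxylate, fell by 1.22 in control hearts and had -0.32 in CKD hearts. Sms, which makes spermine, fell by 0.87 in control hearts and had -0.05 in CKD hearts. Cdc34, a ubiquitin-conjugating enzyme, fell in both groups, with -0.52 in CKD and -1.43 in control hearts. Tbcc, a tubulin folding cofactor, and Etfrf1, a regulator of the electron transfer flavoprotein, fell in control hearts (-0.46 and -1.18) and had 0.02 and -0.30 in CKD hearts. A further 3, 1110008P14Rik, Gm10874 and Gm15408, have no role given here. They fell in control hearts (-0.36, -2.10 and -1.64) and had 0.14, -0.56 and -0.37 in CKD hearts, none of them called.

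**Figure D5:**
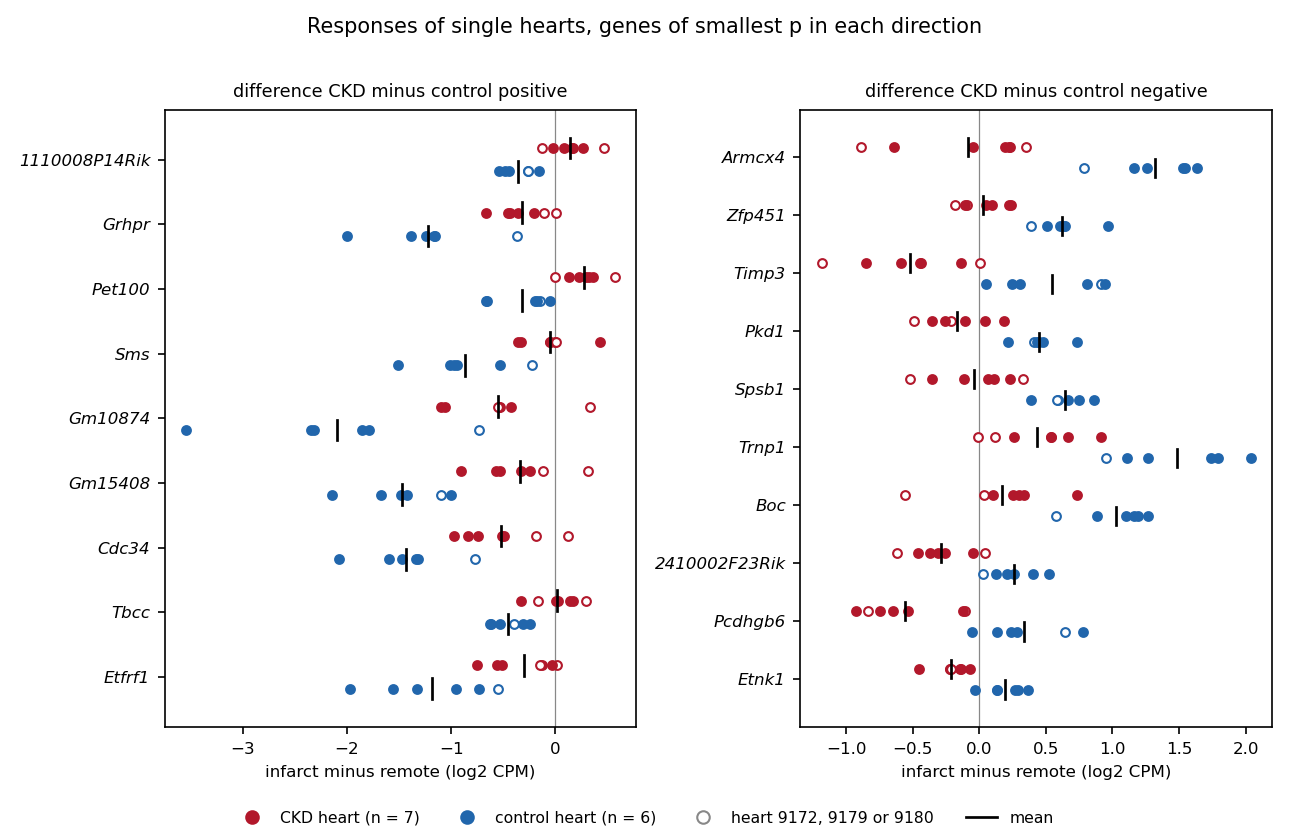
Infarct minus remote log2 CPM in each CKD heart (red, upper row of each gene) and control heart (blue, lower row) for 9 of the 10 genes of smallest p with a positive difference (left) and the 10 with a negative difference (right), with black bars for group means and open symbols for mice 9172, 9179 and 9180. Positive genes fell in control hearts and lie nearer to 0 in CKD hearts, and Armcx4 lies between 0.79 and 1.64 in control hearts. Timp3 lies on opposite sides of 0 in the groups, apart from CKD mouse 9172 (0.01).

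With the cardiomyocyte covariate the differences of Timp3 and Pet100 were -0.84 and 0.52, against -1.07 and 0.59 without it. For Grhpr, Cdc34 and Etfrf1 they were 0.46, 0.41 and 0.36, against 0.90, 0.91 and 0.88. These values describe genes that were chosen for their small p in the same hearts.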

How the data were processed

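Bulk RNA sequencing covered infarct and remote heart tissue. The authors deposited whole-number counts per gene for 27304 genes, the unit being read from the values. Per the labels' protocols, libraries were made with the NEBNext Ultra II RNA kit; strand handling is not given there, so overlapping and antisense genes cannot be separated. The submitters' processing notes name kallisto 0.48.0 and the build GRCm39. How transcript estimates became counts per gene is not given in the sources used here, and kallisto shares ambiguous reads among similar transcripts, which affects paralogs. No coordinates are given, as the reference at hand is of another build.

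Groups came from titles, with separate mice as replicates. The counts as deposited were tested in R 4.3.3 with edgeR 4.0.16: filterByExpr by 4 groups, TMM factors, robust quasi-likelihood F test, 1 coefficient per mouse, 1 infarct effect per diet group and their contrast, Benjamini-Hochberg adjustment and a threshold of 0.05. Each SE is the absolute log2 fold change divided by the root of F. Log2 CPM used a prior count of 2. Both pieces come from 1 heart, so the design pairs them. After removal of group means, the 13 pairs correlated at -0.07 to 0.42, median 0.17, against -0.02 between other mice. No 2 libraries of a group were duplicates, as chi-square over degrees of freedom was at least 9.03 in 72 pairs. The exact permutation test cannot go below p = 0.00117 with 7 and 6 hearts.

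The 13 hearts, 40 gene lists (480 genes, 478 of them in the table, 6 under an older symbol) and tests were chosen with earlier results of these data known. Trac and Ighm were not analysed here, and 2 genes that the rule below names are not reported here. Gene names were checked by ID; 27 symbols that had turned into dates were restored, and 479 entries sharing a symbol were kept by ID. Genes named are the 10 of smallest p per direction and the 2 members of smallest p per list, at a mean of at least 1 CPM, up to 5 genes called in opposite directions, at any level, and Col1a1, Apoe, Myh6, Myh7, Nppa and Nppb, of which some are printed. The test was also run on simulated counts, with each library drawn independently from the mean of its group. Those counts held no effect shared by the pieces of a mouse, so they are no check of the pairing. The outcome is not reported here. Alternatives were DESeq2 1.42.0, limma 3.58.1 on responses of single hearts (also with prior count 0.5, array weights or a cardiomyocyte covariate), other scaling and filters, no mouse block, and fewer hearts. The fits of both responses across genes with fewer hearts or other tools were added after the data were seen.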

Additional observations from a re-analysis of the deposited data

Results flagged for a closer look

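Pet100 had responses above 0 in all 7 CKD hearts and below 0 in all 6 control hearts, with a difference of 0.59 on the log2 scale. The lowest CKD response was 0.00025 and the highest control response -0.051. Over the 13 fits with 1 heart left out Pet100 kept its opposite calls in 8. It was named for its small p in these same hearts, so the split of signs is no separate support. The difference itself was tested by edgeR's quasi-likelihood test and did not pass the threshold (adjusted p = 0.259), nor did it in the alternative fits that gave it an adjusted p, while DESeq2 gave it none.

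The remaining 12 values are hearts that lay far from the others of their group, judged by the gap to the nearest heart relative to the group's range. Of 208 groups of hearts looked at, chance alone would mark about 1 in 20, and 12 is near that share. The groups share hearts and genes and are not independent looks. CKD mouse 9179 accounts for 6 of the 12 values. Its responses were 0.64 for Tnnc1, -0.52 for Smad3 and -1.35 for Col1a1, and its mean responses were -0.86 for the matrix list, -0.29 for the TGF-beta pathway and -0.38 for activated fibroblasts. Control mouse 9180 had mean responses of 0.60 for collagen processing and cross-linking and 0.58 for the TGF-beta pathway, both the lowest of the control hearts. Control mouse 9171 had responses of 2.96 for Acta2 and -2.69 for Nqo1. CKD mouse 9177 had -0.45 for Etnk1, and CKD mouse 9178 had a mean response of 3.29 for the B cell list.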

How the results depend on the processing

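The count of 0 genes with different responses was the same without the mouse block (no replicate block, 0 called, 2492 at an unadjusted p under 0.05), with other scaling or filters, in limma on responses of single hearts, with the cardiomyocyte covariate and without any single heart (0 to 0 called). DESeq2 called 399 and limma with array weights 1, and the cause was not tested. Without single hearts, calls of infarct against remote tissue ran from 5003 to 8233 in CKD hearts and from 8863 to 9986 in control hearts. Without the mouse block they were 6434 and 9372 in the same order, and no call of the difference was changed by it. Unadjusted p under 0.05 for the difference numbered 1633 genes without control mouse 9171 and 3941 without control mouse 9180, where the lowest adjusted p was 0.0790. They numbered 1186 without 9172 and 9179, and 2770, with a lowest adjusted p of 0.0701, without 9172, 9179 and 9180. With the covariate the difference turned to 0.15 for Eln, 0.16 for Thbs2, -0.0898 for Timp4, -0.11 for Kdr, -0.11 for Myh7 and 0.71 for Col1a1. For Myh6 it was -0.00669, but Myh6 is a member of the list that makes the covariate. Col1a1 also turned to 0.99 without the block and 0.26 without 9172 and 9179, and the cause was not tested. The number of hearts, 7 and 6, limits what can be detected, as the SE of the difference was 0.14 for Pet100 and 1.12 for Col1a1 on the log2 scale.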
